A study of Mus musculus with 6 samples.

Results

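A set of 10 genes of lipid droplet coating and triglyceride turnover was followed in Raw264.7 macrophages with reduced *Etv5* expression: *Plin2*, *Plin3*, *Plin4*, *Plin5*, *Hilpda*, *Pnpla2*, *Abhd5*, *Dgat1*, *Dgat2* and *G0s2*. They were taken by gene symbol from a list of names, which was drawn up with earlier results of these data known, and are 10 of the 24786 gene symbols measured. Polyadenylated RNA was sequenced in 3 libraries of cells given a control shRNA (sh-NC) and in 3 libraries of cells given an shRNA against *Etv5* (sh-Etv5), a transcription factor of the ETS family. Raw264.7 is a mouse macrophage line from a tumor induced by Abelson murine leukemia virus, labelled as strain C57BL/6 and postnatal day 21 in all samples. Both groups were infected with lentivirus together with Lipofectamine 3000, with readouts 24 or 48 h later per the labels, whereas the study describes the sequenced cells as stably transfected. The sources used here do not name which of the study's shRNAs was sequenced, nor whether libraries within a group stem from separate infections or cultures, so that p-values measure the spread between these libraries, which may be technical.

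Cells store surplus fatty acids as triglyceride in lipid droplets, whose surface is coated by perilipins. Triglyceride is completed by the acyltransferases DGAT1 and DGAT2, and its breakdown starts with the lipase ATGL, the product of *Pnpla2*, which is activated by ABHD5 and inhibited by HILPDA and G0S2. In macrophages, droplets build up when lipid uptake is high and during inflammatory activation, and PLIN2 is the perilipin usually found on them.

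Values are RPKM, read counts scaled to gene length and to the mapped reads of the library, so levels of different genes can be set side by side per length. The sums of RPKM over all genes ranged from 320462 to 322949 in the sh-NC libraries and from 330454 to 340257 in the sh-Etv5 libraries, while read numbers are unknown. The targeted gene, *Etv5*, measured 9.18, 9.89 and 9.39 RPKM under sh-NC and 5.19, 4.91 and 5.28 RPKM under sh-Etv5, and limma gave a log2 fold change of -0.78 with an adjusted p of 2.74e-07. The pseudogene *Gm4798* shares 24.5% of the 50-base stretches of *Etv5*. The macrophage identity was checked with 10 markers, of which 9 reached 1 RPKM, *Mrc1* being the exception. Their summed RPKM was 4453 to 4580 in the sh-NC libraries and 3566 to 3683 in the sh-Etv5 libraries, a sum carried largely by *Lyz2*. Single markers moved both ways: of the 9 tested, *Adgre1* (log2 fold change 1.77), *Itgam* (1.88), *Cd14* (0.25) and *Spi1* (0.15) were called higher, *Csf1r* (-0.81), *Cd68* (-0.57) and *Lyz2* (-0.47) lower, and *Ptprc* and *Fcgr3* neither. Of 7 adipocyte markers, *Fabp4*, which macrophages also express, was the one that reached 1 RPKM. The other 6 summed to at most 0.0668 RPKM in sh-NC and 0.208 RPKM in sh-Etv5 libraries, and *Lep* was listed at 0 throughout. The 5 fibroblast markers each stayed under 1 RPKM, *Col1a2* was listed at 0 throughout, and their sum was 0.0112 to 0.0222 RPKM in sh-NC and 0.764 to 1.10 RPKM in sh-Etv5 libraries. The part of these marker shifts in the results was not tested.

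Genes with at least 1 RPKM in at least 3 of the 6 libraries were compared with limma on log2(RPKM + 1), and a Benjamini-Hochberg adjusted p under 0.05 over all 10738 tested genes was called. Of the 10 genes, 6 were tested (*Plin2*, *Plin3*, *Hilpda*, *Pnpla2*, *Abhd5* and *Dgat1*), and each of these was above 1 RPKM in every library of both groups. The other 4 (*Plin4*, *Plin5*, *Dgat2* and *G0s2*) stayed under 1 RPKM in every library. Of the 6 tested genes, 5 were called higher and 0 lower in sh-Etv5 libraries (limma; 0 lower also at an unadjusted p under 0.05), and *Abhd5* was not called. The contrast moved much of the transcriptome, since 74.3% of all tested genes were called, 33.3% higher and 41.0% lower. The groups did not overlap for 5 of the 6 genes, and for 76.4% of all tested genes. With a log2 fold change above 0.5 required as well, *Plin2*, *Plin3* and *Hilpda* remained, against 15.9% of all tested genes called higher. The median log2 fold change was 0.72 over the 6 tested genes and -0.05 over all tested genes. In bulk RNA, a different share of cells with a transcript and a different amount of it per cell cannot be told apart.

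**Figure D1:**
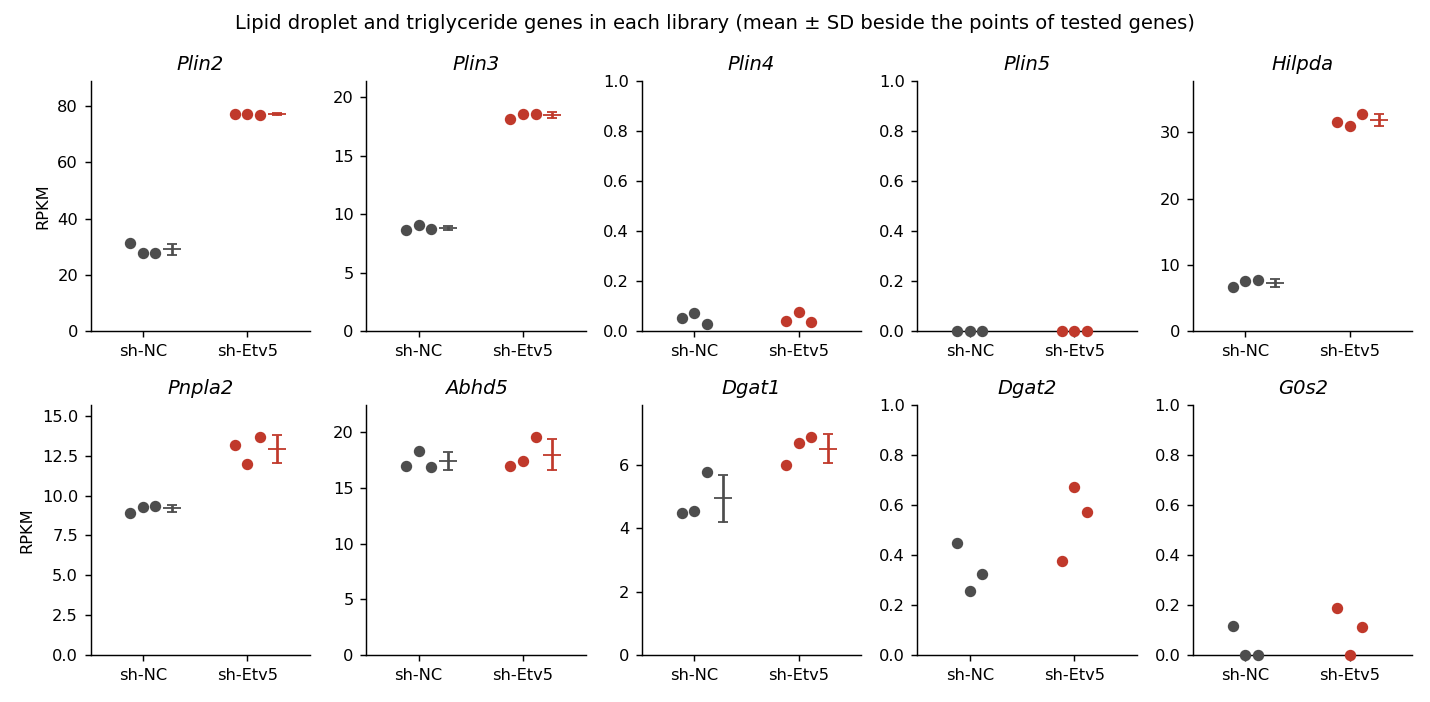
RPKM of each of the 10 genes (vertical axes, each starting at 0) in the 3 sh-NC and the 3 sh-Etv5 libraries (points); the bars beside the points of the 6 tested genes are mean ± SD. The groups are separate for *Plin2*, *Plin3*, *Hilpda*, *Pnpla2* and *Dgat1*, overlap for *Abhd5*, and stay under 1 RPKM for the other 4 genes.

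The droplet coat was represented by 2 of the 4 perilipins, and both rose. *Plin2* encodes the perilipin that coats droplets in most cells other than adipocytes and is degraded when it is not bound to them. It measured 31.5, 27.9 and 27.8 RPKM under sh-NC, against 77.2, 77.3 and 76.7 RPKM under sh-Etv5. The sh-Etv5 libraries lay close together, and all were far above the highest sh-NC library. The mean rose 2.65-fold from 29.0 ± 2.08 to 77.1 ± 0.334 RPKM (SD, n = 3). The limma estimate on the log2 scale was 1.38, with a 95% confidence interval of 1.27 to 1.49 and an adjusted p of 6.96e-10. Of all tested genes, 3.40% had a higher log2 fold change. *Plin2* is a gene of the minus strand of chromosome 4, from 86648386 to 86670060 (GRCm38, GENCODE M21) and has 8 exons in its principal transcript. Of its 50-base stretches, 2.57% also occur in the pseudogene *Gm12551*.

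*Plin3* encodes a perilipin that is stable in the cytosol and moves to small, newly formed droplets. It measured 8.68, 9.03 and 8.73 RPKM under sh-NC, against 18.1, 18.6 and 18.6 RPKM under sh-Etv5. As for *Plin2*, the libraries of each group were close together and the groups far apart. The mean went up 2.09-fold from 8.81 ± 0.188 to 18.4 ± 0.261 RPKM (SD, n = 3). The limma estimate on the log2 scale was 0.98, with a 95% confidence interval of 0.89 to 1.08 and an adjusted p of 6.06e-09. *Plin3* is at chromosome 17, 56277476 to 56292873, on the minus strand.

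*Plin4* and *Plin5*, its neighbors on chromosome 17, did not reach the level for testing. *Plin4*, which encodes a perilipin mainly of adipocytes, measured 0.0530, 0.0716 and 0.0276 RPKM under sh-NC, against 0.0422, 0.0780 and 0.0378 RPKM under sh-Etv5. These values overlap between the groups, and 17 exonic bases of *Plin4* overlap *Hdgfl2* on the opposite strand. *Plin5*, which encodes a perilipin of oxidative tissues such as heart and muscle, was listed at 0 in all 6 libraries.

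Within a library, the share of each coat transcript does not depend on a scaling factor of the library, whereas the summed RPKM does. The summed RPKM of the perilipins was 40.2, 37.0 and 36.6 in the sh-NC libraries and 95.3, 96.0 and 95.3 in the sh-Etv5 libraries, a 2.52-fold difference of means. *Plin2* made up 78.3%, 75.4% and 76.0% of that sum in the sh-NC libraries and 80.9%, 80.6% and 80.5% in the sh-Etv5 libraries. Every sh-Etv5 library had a larger share than every sh-NC library, but the shift was small beside the rise of the sum. The mean share was 76.6 ± 1.51% and 80.7 ± 0.253% (SD, n = 3), a difference of 4.09 percentage points with an exact two-sided permutation p of 0.1. That is the smallest p that 3 against 3 libraries allow.

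*Hilpda* had the largest log2 fold change of the 6 tested genes. It encodes a short droplet protein named for its induction by hypoxia, which binds ATGL and inhibits it. It measured 6.63, 7.63 and 7.68 RPKM under sh-NC, against 31.6, 31.0 and 32.8 RPKM under sh-Etv5. Every sh-Etv5 library was several times higher than every sh-NC library. The mean increased 4.35-fold from 7.32 ± 0.594 to 31.8 ± 0.912 RPKM (SD, n = 3). The limma estimate on the log2 scale was 1.98, with a 95% confidence interval of 1.86 to 2.11 and an adjusted p of 1.85e-10. Of all tested genes, 1.49% had a higher log2 fold change. *Hilpda* is at chromosome 6, 29272488 to 29275446, on the plus strand, has 2 exons, and shares no 50-base stretch with another annotated gene.

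*G0s2*, the other ATGL inhibitor, measured 0.114, 0 and 0 RPKM under sh-NC, against 0.186, 0 and 0.114 RPKM under sh-Etv5. It was listed at 0 in libraries of both groups, and the groups overlapped. Nearly all of the summed inhibitor RPKM in each library was therefore *Hilpda*.

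The stretches around the start sites of the tested genes with a listed promoter are shown with the core of the hypoxia response element marked, since *Hilpda* is named for hypoxia. The core, ACGTG or GCGTG, is the motif bound by hypoxia-inducible factors, and any part of it in these results was not tested. The sequences are from RefSeq (GRCm38.p6) and run from 43 bases before the start to 2 bases from it, 5′ to 3′ on the strand of the gene, with each core on either strand in capitals. The window was set after the matches were seen, so that it holds those of *Hilpda* and *Plin2* nearest the start, and no share of all promoters is given for it. A match describes these letters and is not a bound site. They cover chr6:29272583-29272627 on the plus strand for the downstream start of *Hilpda*, chr4:86670058-86670102 on the minus strand for *Plin2*, chr9:122351573-122351617 on the plus strand for *Abhd5*, chr17:56290510-56290554 on the minus strand for *Plin3*, and chr7:141455145-141455189 on the plus strand for *Pnpla2*. The *Plin3* stretch lies inside the gene as annotated by GENCODE, whose 5′ end is at 56292873, and that end was not searched.
Hilpda: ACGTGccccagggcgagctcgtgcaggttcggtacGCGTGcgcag
Plin2: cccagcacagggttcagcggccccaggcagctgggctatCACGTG
Abhd5: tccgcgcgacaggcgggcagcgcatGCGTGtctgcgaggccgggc
Plin3: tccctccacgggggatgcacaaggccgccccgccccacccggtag
Pnpla2: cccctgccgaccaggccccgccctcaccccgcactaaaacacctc

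*Hilpda* shows 2 separate cores in these 45 bases, *Plin2* 1 stretch read as ACGTG on both strands, *Abhd5* 1 core, and *Plin3* and *Pnpla2* none. Over the full promoter of 300 bases, from 250 before to 50 after the start, the counts were 3 for *Hilpda*, 2 for *Plin2*, 1 for *Abhd5* and 0 for *Plin3* and *Pnpla2*, and 43.8% of all 32851 RefSeq promoters hold at least 1 and 6.43% at least 3. Both cores contain CG, and the GC content was 64.3% for *Hilpda*, 60.7% for *Plin2*, 67.7% for *Abhd5*, 59.3% for *Plin3* and 65.3% for *Pnpla2*. The median of all promoters was 52.7%, and promoters of like GC content were not compared. Taken singly, ACGTG was in 19.6% and GCGTG in 32.4% of all promoters. The promoter of the upstream start of *Hilpda* holds 1 core, downstream of that start. The ETS motif CCGGAAGT was searched on both strands as this exact string, and 3.89% of all promoters hold it. It was in none of the promoters listed for *Plin2*, *Plin3*, *Plin4*, *Plin5*, *Hilpda*, *Pnpla2*, *Abhd5* and *G0s2*. Shorter or inexact forms of the ETS motif were not searched, so these promoters may hold them. The nuclear receptor motif AGGTCA, in 16.3% of all promoters, was in the *Plin2* and *Abhd5* promoters among the tested genes, and the AP-1 motif TGACTCA, in 5.202% of all promoters, was in none of theirs.

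**Figure D2:**
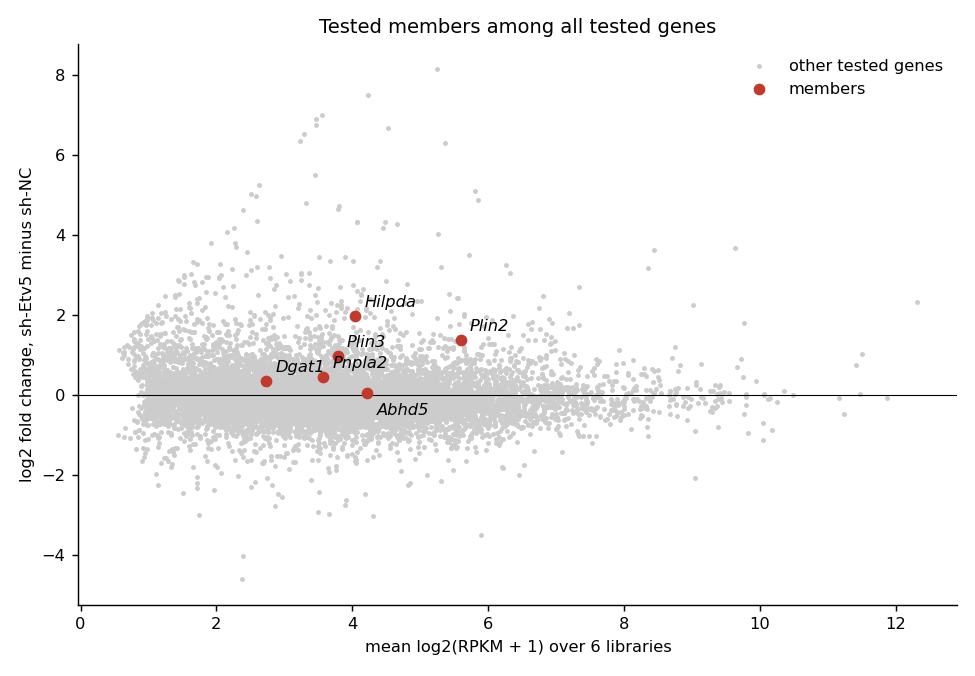
Log2 fold change (sh-Etv5 minus sh-NC, vertical axis) against mean log2(RPKM + 1) over the 6 libraries (horizontal axis) for all 10738 tested genes (gray), with the 6 tested lipid droplet and triglyceride genes in red. *Hilpda* (1.98), *Plin2* (1.38) and *Plin3* (0.98) lie above most genes, and *Abhd5* (0.04) lies near 0.

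The gene of the lipase itself rose, while that of its activator was not called. *Pnpla2*, which encodes ATGL, measured 8.94, 9.28 and 9.37 RPKM under sh-NC, against 13.2, 11.98 and 13.7 RPKM under sh-Etv5. The groups did not overlap, although the sh-Etv5 libraries spread more than the sh-NC libraries. The mean was 40.7% higher, 12.9 ± 0.862 against 9.20 ± 0.226 RPKM (SD, n = 3). On the log2 scale limma gave 0.45, with a 95% confidence interval of 0.32 to 0.57 and an adjusted p of 2.61e-05. *Pnpla2* is at chromosome 7, 141455198 to 141460743, on the plus strand.

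*Abhd5* encodes the protein also known as CGI-58, which activates ATGL and is held by perilipins at the droplet surface. It measured 16.9, 18.3 and 16.9 RPKM under sh-NC, against 17.0, 17.5 and 19.5 RPKM under sh-Etv5. These ranges overlap over most of their length. On the log2 scale limma gave 0.04, with a 95% confidence interval of -0.08 to 0.17 and an adjusted p of 0.50. The estimate was -0.01 with libraries rescaled to the same sum or without the third sh-Etv5 library. *Abhd5* is at chromosome 9, 122351608 to 122381524, on the plus strand. Its exons share 950 bases with *A730085K08Rik* on the opposite strand, which was at most 0.0940 RPKM. The sources used here do not say whether counting used strand, so reads of these 2 genes cannot be told apart within the shared bases. *Abhd5* has 5956 exonic bases.

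The inhibitor and the activator were also set against the lipase within each library. The ratio of *Hilpda* to *Pnpla2* RPKM was 0.742, 0.823 and 0.820 in the sh-NC libraries and 2.40, 2.59 and 2.40 in the sh-Etv5 libraries. *Hilpda* was thus below *Pnpla2* in every sh-NC library and above it in every sh-Etv5 library. The log2 ratio of summed *Hilpda* and *G0s2* to *Pnpla2*, with 1 RPKM added to each side, was higher by 1.53 in sh-Etv5 libraries (exact two-sided permutation p = 0.1, the smallest possible).

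The ratio of *Abhd5* to *Pnpla2* RPKM was 1.90, 1.97 and 1.80 in the sh-NC libraries and 1.29, 1.46 and 1.43 in the sh-Etv5 libraries. *Abhd5* exceeded *Pnpla2* in all 6 libraries, by less in each sh-Etv5 library than in any sh-NC library. The mean ratio was 1.89 ± 0.0851 and 1.39 ± 0.0894 (SD, n = 3), and the log2 ratio, again with 1 RPKM added, differed by -0.40 (exact two-sided permutation p = 0.1).

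**Figure D3:**
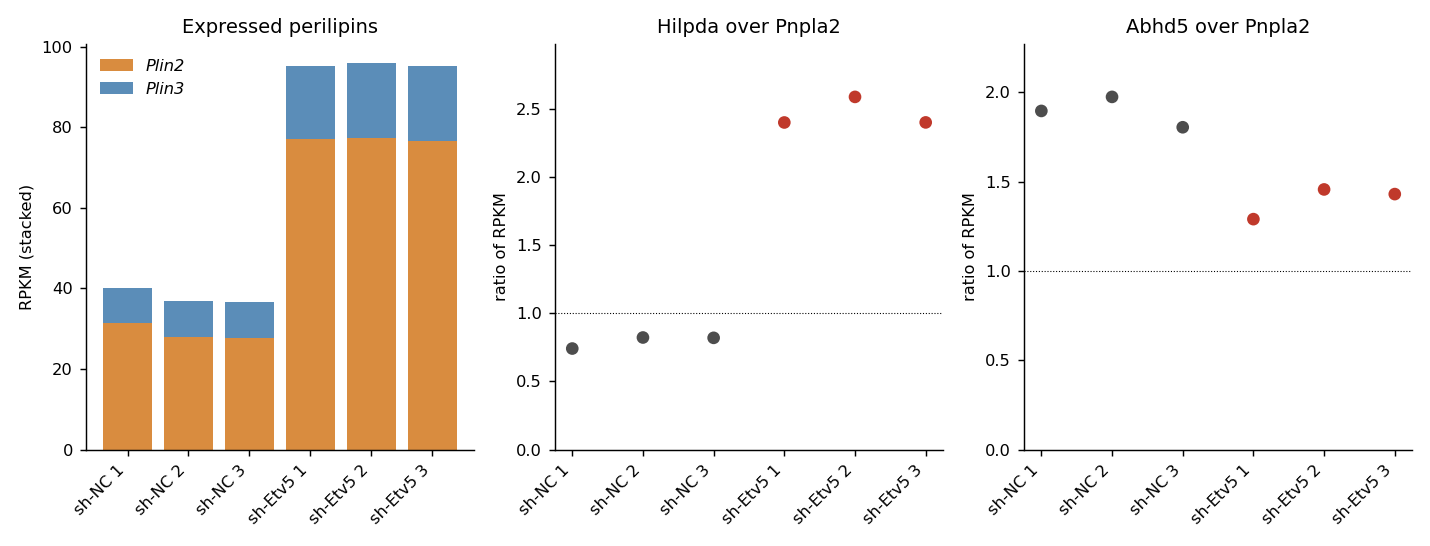
Left, stacked RPKM of *Plin2* and *Plin3* in each of the 6 libraries; middle and right, the ratios of *Hilpda* and of *Abhd5* to *Pnpla2* RPKM in each library, with a dotted line at equal levels. The perilipin sum is 36.6 to 40.2 RPKM in sh-NC and 95.3 to 96.0 RPKM in sh-Etv5 libraries, *Hilpda* crosses the line from 0.742 to 0.823 up to 2.40 to 2.59, and *Abhd5* stays above it.

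The last step of triglyceride synthesis showed the smallest called difference. *Dgat1*, whose enzyme resides in the endoplasmic reticulum and esterifies mainly incoming and recycled fatty acids, measured 4.49, 4.54 and 5.77 RPKM under sh-NC, against 5.98, 6.69 and 6.86 RPKM under sh-Etv5. The highest sh-NC library came close to the lowest sh-Etv5 library. The mean was 31.9% higher, 6.51 ± 0.465 against 4.94 ± 0.727 RPKM (SD, n = 3). On the log2 scale limma gave 0.34, with a 95% confidence interval of 0.15 to 0.54 and an adjusted p of 0.00412. Without the filter on low values the limma adjusted p of *Dgat1* was 0.0745, and the call was lost. *Dgat1* is at chromosome 15, 76502015 to 76511953, on the minus strand.

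*Dgat2*, whose enzyme also acts at the droplet surface, measured 0.448, 0.256 and 0.322 RPKM under sh-NC, against 0.376, 0.671 and 0.569 RPKM under sh-Etv5. The groups overlapped, and a limma fit of all genes without the filter put its log2 fold change at 0.20, with a 95% confidence interval of -0.06 to 0.45 and an adjusted p of 0.242. *Dgat1* made up 90.9%, 94.7% and 94.7% of the summed *Dgat1* and *Dgat2* RPKM in the sh-NC libraries and 94.1%, 90.9% and 92.3% in the sh-Etv5 libraries. These shares overlapped, with a difference of -0.998 percentage points (exact two-sided permutation p = 0.5).

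The order of the 6 expressed genes by mean RPKM differed between the groups. In sh-NC libraries it was *Plin2*, *Abhd5*, *Pnpla2*, *Plin3*, *Hilpda* and *Dgat1*, and the libraries of *Pnpla2* and *Plin3* overlapped in level. In sh-Etv5 libraries it was *Plin2*, *Hilpda*, *Plin3*, *Abhd5*, *Pnpla2* and *Dgat1*, and those of *Plin3* and *Abhd5* overlapped. *Plin2* was the highest and *Dgat1* the lowest in both groups, while *Hilpda* went from the fifth place to the second. The ratio of *Plin2* to *Dgat1* RPKM, coat to synthesis, was 5.99 ± 1.10 in sh-NC and 11.9 ± 0.905 in sh-Etv5 libraries (SD, n = 3).

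Around these genes, 54 other genes of lipid droplets and lipid metabolism were followed, of which 53 were matched to the table (*Spart* under its older symbol *Spg20*), 37 were tested and 16 were below the filter. Of the 37, 14 were called higher, 13 lower and 10 neither, with a median log2 fold change of 0.07, beside 33.3% higher and 41.0% lower among all tested genes. *Ldaf1* was the 1 gene without a match. *Gpat3*, *Mogat1*, *Soat2* and *Cd36* were under 1 RPKM in every sh-NC library and passed the filter through the sh-Etv5 libraries alone, where they are high, so their calls add nothing to these counts. Without them, 10 of 33 genes were called higher and 13 lower, and the median log2 fold change was -0.04.

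Of other genes for droplet surface and biogenesis, 9 of 15 matched were tested, 2 of them called higher and 2 lower. *Lpcat1*, whose enzyme makes phosphatidylcholine for membranes and the droplet surface, fell from 32.4 ± 0.591 to 14.98 ± 0.272 RPKM (SD, n = 3, log2 fold change -1.06 with a limma adjusted p of 1.26e-09). *Spart* (0.32), for the droplet turnover protein spartin, and *Rab18* (0.30), for a droplet GTPase, had smaller called log2 fold changes. The adipocyte coat gene *Plin1* and the droplet fusion genes *Cidea* and *Cidec* were all below 0.1 RPKM in every library. *Cideb*, on the same list, measured 0.774 to 1.26 RPKM under sh-NC and 0.945 to 1.03 RPKM under sh-Etv5 and did not pass the filter.

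Of 11 tested genes of earlier glycerolipid synthesis, 4 were called higher and 4 lower, or 2 and 4 of 9 without *Gpat3* and *Mogat1*, beside 33.3% and 41.0% of all tested genes. Among the 4 lower, *Lpin2* (log2 fold change -0.78) and *Agpat2* (-0.67) kept their calls in all 16 alternatives. *Gpam* (-0.17) lost its call in 8 of 15 alternatives. *Agpat5* (-0.18) lost its call in 2 of 16, 1 of them the fit without the filter on low values (limma adjusted p = 0.0563). *Gpat3*, for an acyltransferase of the first step, went from 0.319 ± 0.0499 to 9.21 ± 0.975 RPKM (SD, n = 3, log2 fold change 2.95). In the limma fit without a filter its adjusted p was 5.99e-05. *Agpat4*, for an acyltransferase of the second step, went from 2.23 ± 0.133 to 11.1 ± 0.421 RPKM. *Mogat1*, for an enzyme that makes diacylglycerol from monoacylglycerol, went from 0.847 ± 0.164 to 4.54 ± 0.276 RPKM (limma adjusted p without a filter 0.000290). The log2 fold change of genes this low under sh-NC depends on the pseudocount, and that of *Gpat3* was 4.47 and 4.81 with 0.1 and 0.01 RPKM added in place of 1.

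Of 6 tested lipases and hydrolases other than *Pnpla2*, 5 were called lower and 1 higher, beside 41.0% and 33.3% of all tested genes. Among the 5, *Lipa* (log2 fold change -0.10) lost its call without the trend and without sh-NC 2, sh-NC 3 or sh-Etv5 1 (limma adjusted p = 0.0698, 0.0645, 0.0982 and 0.0723). *Lpl*, for the secreted lipoprotein lipase that releases fatty acids from lipoproteins outside the cell, fell from 174.7 ± 3.38 to 42.8 ± 1.34 RPKM (SD, n = 3, log2 fold change -2.01 with a limma adjusted p of 3.12e-12). *Abhd6*, for a monoacylglycerol hydrolase, fell from 7.99 ± 0.0788 to 3.86 ± 0.405 RPKM, and *Ddhd2*, for a lipase active on triglyceride, fell by 0.36 on the log2 scale (limma adjusted p = 0.000371). *Lipe*, for hormone-sensitive lipase and also among the 5 lower, went from 8.45 ± 0.385 to 6.61 ± 0.595 RPKM (SD, n = 3, log2 fold change -0.31 with a limma adjusted p of 0.00136). *Mgll*, for the lipase that completes breakdown after ATGL, was below 0.1 RPKM throughout.

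Of 9 tested genes for fatty acid uptake, activation, binding and cholesteryl ester synthesis, 6 were called higher and 1 lower, or 4 and 1 of 7 without *Cd36* and *Soat2*, beside 33.3% and 41.0% of all tested genes. The 1 lower was *Acsl5*, which went from 81.8 ± 0.459 to 54.2 ± 0.690 RPKM (SD, n = 3, log2 fold change -0.58 with a limma adjusted p of 2.63e-08). Among the 6 higher, *Fabp5* (log2 fold change 1.65) kept its call in all 16 alternatives. *Soat1* (0.14) lost its call with libraries rescaled to the same sum (limma adjusted p = 0.0785). *Fabp4*, for a fatty acid binding protein of adipocytes and macrophages, went from 1.27 ± 0.0667 to 232.9 ± 20.4 RPKM (SD, n = 3, log2 fold change 6.68 with a limma adjusted p of 1.69e-14). With 0.1 and 0.01 RPKM added in place of 1, the log2 fold change of *Fabp4* was 7.41 and 7.51. *Cd36*, for a fatty acid and oxidized lipoprotein receptor, went from 0.359 ± 0.0464 to 16.6 ± 0.316 RPKM. Its log2 fold change was 3.70, or 5.19 and 5.50 with 0.1 and 0.01 RPKM added in place of 1 (limma adjusted p without a filter 5.48e-06). *Soat2*, for an enzyme that esterifies cholesterol for storage in droplets, went from 0.849 ± 0.174 to 11.3 ± 0.561 RPKM (log2 fold change 2.73 with a limma adjusted p of 6.93e-05 without a filter).

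Of 6 regulators of droplet genes, 2 were tested. *Ppard*, for a nuclear receptor activated by fatty acids, rose from 7.68 ± 0.401 to 19.8 ± 2.24 RPKM (SD, n = 3, log2 fold change 1.26 with a limma adjusted p of 5.16e-08). *Hif1a*, for the hypoxia-inducible factor subunit controlled mainly by protein stability, whose core was searched in the promoters, was at 38.9 ± 1.09 and 35.3 ± 1.42 RPKM (log2 fold change -0.14 with a limma adjusted p of 0.0121). That call was lost without the filter on low values, under quantile normalization and without the first sh-Etv5 library (limma adjusted p = 0.0543, 0.0685 and 0.0538). *Ppara*, *Pparg*, *Ppargc1a* and *Epas1* were below the filter.

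**Figure D4:**
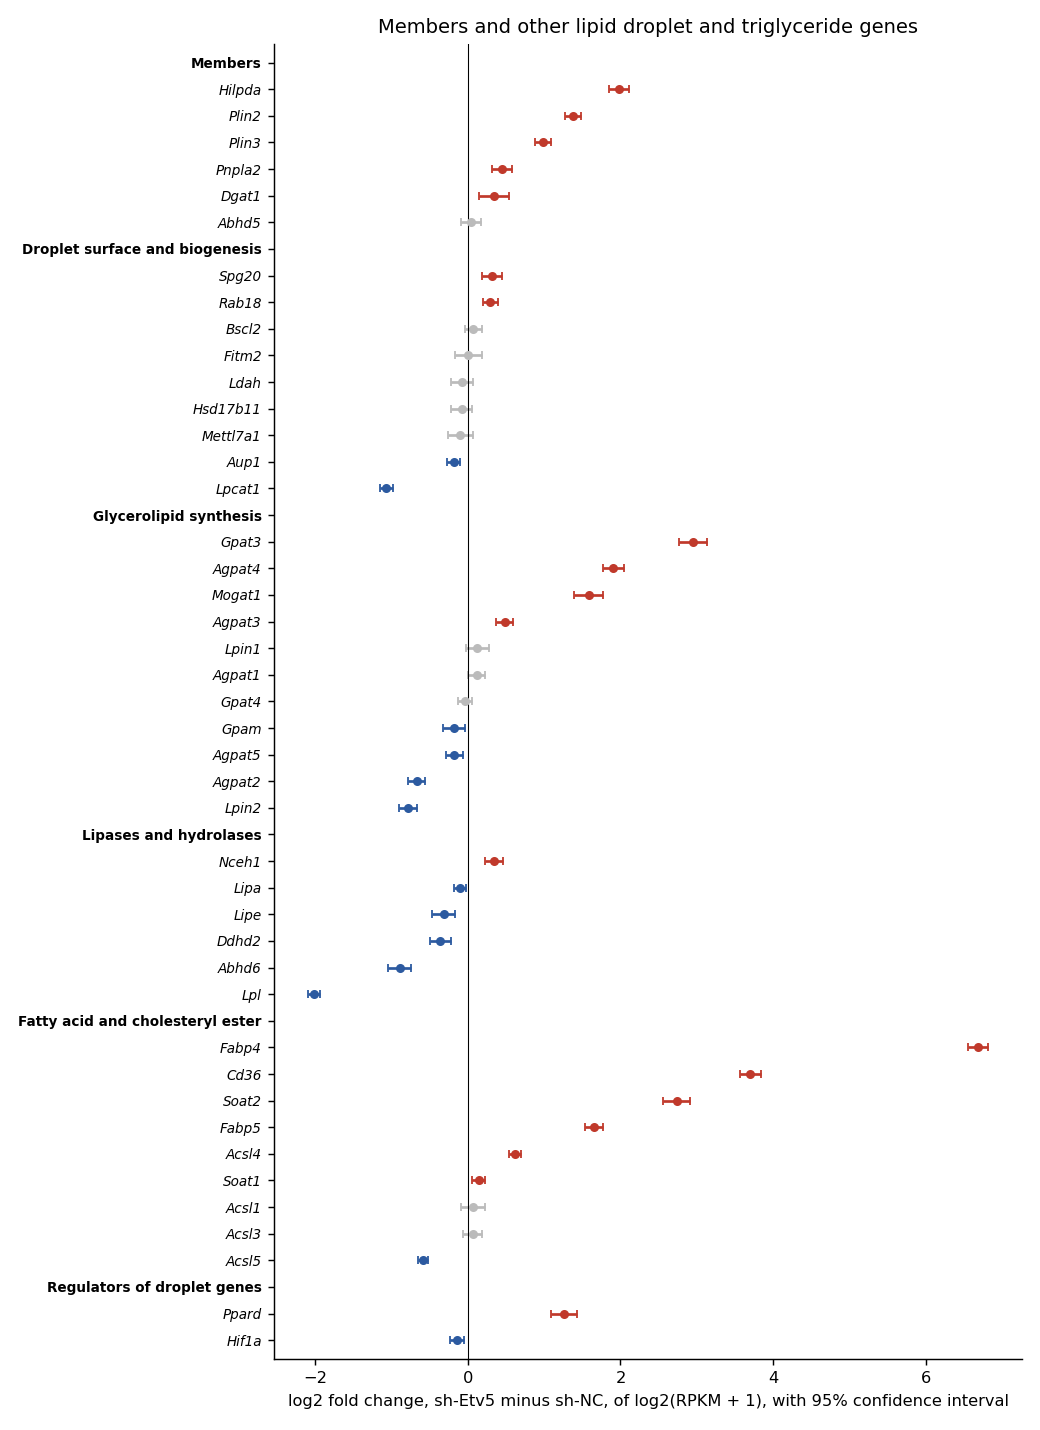
Log2 fold change (sh-Etv5 minus sh-NC, horizontal axis) with its 95% confidence interval for the 6 tested genes (headed Members) and the 37 other tested genes by role; *Spart* is drawn as Spg20, and red marks genes called higher, blue called lower and gray neither. The red points include 5 of the 6 genes, 5 of the 6 other lipases are blue, and *Fabp4* (6.68) lies farthest right. *Gpat3*, *Mogat1*, *Soat2* and *Cd36*, also red, passed the filter through the sh-Etv5 libraries alone, so their calls add nothing.

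The size of the changes in the tested genes depended little on the pseudocount, the scaling or any 1 library. The alternatives in the filter, the trend, the block and the thresholds leave the log2 fold change as reported by construction. Over the pseudocounts, rescaling, quantile normalization and each library left out, the log2 fold change was 1.32 to 1.44 for *Plin2*. It was 0.93 to 1.06 for *Plin3*, 1.92 to 2.12 for *Hilpda*, 0.39 to 0.50 for *Pnpla2* and 0.29 to 0.44 for *Dgat1*. *Hilpda*, *Plin2* and *Plin3* kept this order, and the ranges of *Pnpla2* and *Dgat1* overlapped.

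**Figure D5:**
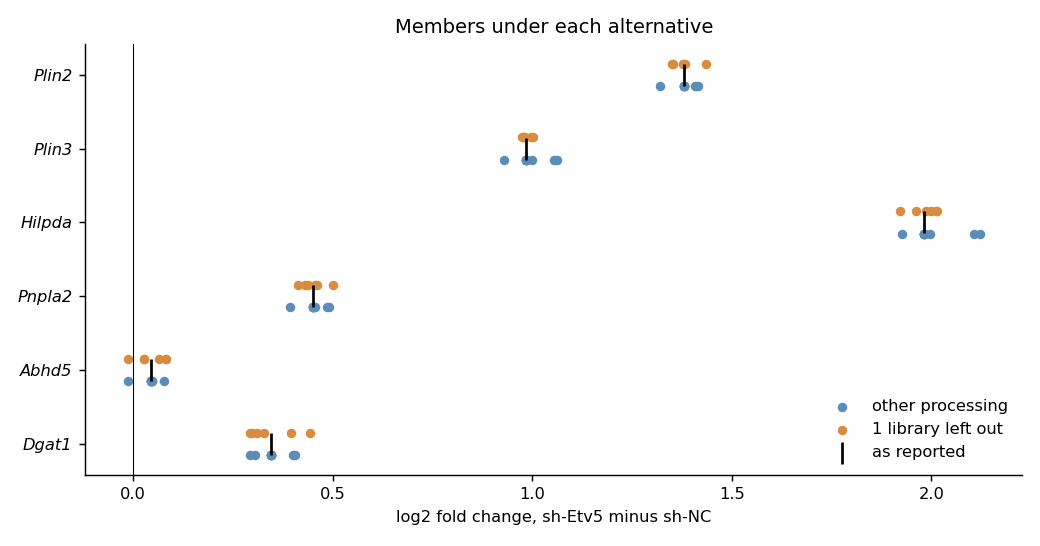
Log2 fold change (sh-Etv5 minus sh-NC, horizontal axis) of the 6 tested genes as reported (black line), with other processing (blue points) and with 1 library left out (orange points). The points of *Hilpda*, *Plin2* and *Plin3* form separate ranges, and those of *Abhd5* lie on both sides of 0, from -0.01 to 0.08. Blue points for the filter, trend, block and threshold alternatives fall at the reported value by construction.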

How the data were processed

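Poly(A) RNA of 3 sh-NC and 3 sh-Etv5 libraries of Raw264.7 cells, prepared with an Illumina TruSeq kit, was sequenced. The authors deposited RPKM values per gene symbol, 1 column per library and without log transformation. The build is mm10 per the submitters' processing notes, while the aligner, the annotation and the use of strand are not given in the sources used here. RPKM scales each value by all mapped reads, so a few strongly changed genes can shift the others. Whole reads could not be recovered. A ratio shared by 30 to 61 of 1867 to 2093 low genes put the relative depth of the libraries at 0.897 to 1.06 times that of the first sh-NC library. The absolute depth is unknown, and no counting interval was computed.

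From the deposited RPKM, log2(RPKM + 1) of the 10738 genes with at least 1 RPKM in at least 3 libraries was fitted in R 4.3.3 using limma 3.58.1 (two-sided, eBayes with trend, no covariate). The step was tested on simulated data. Ratios within a library were compared by exact permutation tests (SciPy 1.17.1, Python 3.11.15). Loci, overlaps and shared 50-base stretches came from GENCODE M21 on GRCm38, and promoters from RefSeq. *Dgat1* and *Dgat2* have no promoter entry.

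The named genes are *Etv5*, the 10 genes, and from each role of the wider list up to 3 called genes with the largest absolute change. *Acsl5*, *Agpat1*, *Agpat2*, *Agpat5*, *Fabp5*, *Gpam*, *Lipa*, *Lipe*, *Lpin2*, *Soat1* and *Ldaf1* were named after their values were seen. So were genes below the filter, genes that share sequence, and promoters other than that of *Hilpda*. The counts without genes that pass the filter in 1 group alone were also added then. The genes, lists and motifs were chosen with earlier results of these data known. Replicate numbers come from the sample labels, which do not say what a number stands for. Correlations of same-numbered libraries in their deviations from the group means were 0.07, -0.07 and -0.04, so the libraries were not treated as paired. Alternatives were a pseudocount of 0.1 or 0.01, no filter or one on a mean of 5 RPKM, rescaling to the same sum, quantile normalization, no trend, a replicate block, other thresholds and each library left out.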

Additional observations from a re-analysis of the deposited data

How the results depend on the processing

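With an absolute log2 fold change above 0.5 required, 3 of the 10 genes were called higher, with 1711 genes higher and 1611 lower among all tested and 9 higher and 6 lower in the wider list. The 9 include *Gpat3*, *Mogat1*, *Soat2* and *Cd36*, which passed the filter through the sh-Etv5 libraries alone and add nothing to this count. The log2 fold change of *Abhd5* reversed to -0.0135 when libraries were brought to the same sum and ranged from -0.0130 to 0.0831 with each library left out, the negative value being that without the third sh-Etv5 library. The *Dgat1* share of summed *Dgat1* and *Dgat2* differed by 0.504 percentage points, in the other direction, under quantile normalization (exact permutation p = 0.8), and by -2.25 to -0.22 with each library left out. The log2 ratio of *Hilpda* and *G0s2* to *Pnpla2* differed by 1.62 with a pseudocount of 0.1. The cause of these shifts was not tested. Rescaling moved the median log2 fold change of all tested genes from -0.05 to -0.10, and quantile normalization to -0.07. With each library left out, 5 of the 10 genes stayed called higher and 0 lower, and 10 to 15 genes of the wider list were higher and 11 to 13 lower. Without any 1 sh-Etv5 library (10 or 11 higher), *Gpat3*, *Mogat1*, *Soat2* and *Cd36* did not pass the filter and were not tested.

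A fit with the replicate number as a replicate block, although the numbers were not shown to pair libraries, called 5 of the 10 genes higher and 0 lower, 3539 of all genes higher and 4361 lower, and 15 of the wider list higher and 12 lower. The 15 again include *Gpat3*, *Mogat1*, *Soat2* and *Cd36*, which add nothing to this count. The block fit changed no call among the 10 genes, and in the wider list the call of *Gpam* was lost (limma adjusted p = 0.0522) and *Agpat1* was called higher (0.0226). The paired difference of the *Plin2* share was 4.09 percentage points (exact sign-flip p = 0.25, the smallest possible).

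With 3 libraries per group no exact test of a ratio can pass 0.05, and *Plin4*, *Plin5*, *Dgat2* and *G0s2*, all below 1 RPKM, were not tested.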
